A study of Homo sapiens with 9 samples.

Results

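Tubulin and its small regulator stathmin were followed in the human breast cancer cell line MDA-MB-231 as 10 genes of the 60664 in the count tables. The members were named by family: 3 alpha-tubulin genes (*TUBA1A*, *TUBA1B* and *TUBA1C*), 6 beta-tubulin genes (*TUBB*, *TUBB2A*, *TUBB2B*, *TUBB3*, *TUBB4B* and *TUBB6*) and *STMN1*, which encodes stathmin. The rule uses no measured value, although the members were chosen with earlier results of these data known. All 10 passed the filter on low counts. RNA was taken on day 6 from 3 groups of 3 samples each: scramble control (SC) cells in medium of 0.77 cP, SC cells in medium of 8 cP, and cells carrying a short hairpin RNA against *TRPV4* (shTRPV4) in medium of 8 cP. Viscosity is given in centipoise (cP). Both kinds of cells stably carried the same puromycin-selected lentiviral backbone. By the study's methods, the shTRPV4 cells held sequence 2 of its *TRPV4* hairpins, the one in use outside a separate set of supporting experiments. Nothing in the labels says that the 3 samples of a group were separate cultures, so p-values measure only the spread between these samples.

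Microtubules are hollow polymers of alpha- and beta-tubulin dimers, and several genes encode closely related versions, or isotypes, of each subunit. The isotypes differ most in their carboxy-terminal tails, which lie on the outside of the microtubule, carry modifications such as polyglutamylation, and are read by motors and microtubule-associated proteins. Stathmin binds free dimers and promotes microtubule shrinkage. Cells also monitor their soluble tubulin: when free dimers are in excess, TTC5 recognizes the first residues of nascent tubulin chains and, with SCAPER and the CCR4-NOT deadenylase, marks the translated mRNA for decay.

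The coding ends show what the members share and where they part, and how far short reads could tell them apart. They are given 5′ to 3′ from the MANE Select transcripts of GENCODE 44. In the first 30 coding bases, the first 4 codons, which encode the stretch read by TTC5 in tubulins, are in capitals. *TUBA1A*, *TUBA1B* and *TUBA1C* had these 30 bases in common, and stathmin, which is no tubulin, is shown for contrast.
TUBA1A: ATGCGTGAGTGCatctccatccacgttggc
TUBB: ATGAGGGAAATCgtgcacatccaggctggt
TUBB2A: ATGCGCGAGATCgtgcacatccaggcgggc
STMN1: ATGGCTTCTTCTgatatccaggtgaaagaa

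The last 60 coding bases of the beta genes, with the stop codon in capitals, encode the tail, and each gene had its own bases here. Those of *TUBB2A* and *TUBB2B* differed only in the final base of the last codon (gct against gcg, both alanine) and in the stop codon. These 2 genes therefore encode the same residues over this stretch.
TUBB: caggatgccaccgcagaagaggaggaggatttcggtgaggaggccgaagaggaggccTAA
TUBB4B: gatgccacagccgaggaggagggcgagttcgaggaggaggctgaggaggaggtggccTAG
TUBB6: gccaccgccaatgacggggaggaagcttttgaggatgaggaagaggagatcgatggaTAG
TUBB2A: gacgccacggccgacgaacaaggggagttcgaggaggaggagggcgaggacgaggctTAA
TUBB2B: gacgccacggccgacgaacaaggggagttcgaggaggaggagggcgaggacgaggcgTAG
TUBB3: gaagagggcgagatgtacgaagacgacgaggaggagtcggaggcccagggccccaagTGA

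Over the whole coding sequence the alpha members were 95.9% to 97.2% identical, and *TUBA1A* and *TUBA1B* had their last 60 coding bases in common. *TUBB2A* and *TUBB2B* were 98.1% identical, whereas other pairs of beta members ranged from 80.9% to 87.7%. Windows of 100 bases, the length of each read of a pair, were therefore slid along each mRNA and looked up in the genome. An identical copy lay elsewhere for 54.6% of the *TUBB2A* windows and 48.7% of the *TUBB2B* windows. The share was 36.9% for *TUBA1B*, 21% for *TUBA1A* and 12.1% for *TUBA1C*, and between 0% and 5.42% for the other 5 members. The multi-mapping option of the counting is not given in the sources used here, so counts of *TUBB2A*, *TUBB2B* and the alpha members are uncertain. The percents do not measure how far. Windows across an exon junction were not compared with the spliced mRNA of other genes, and the other read of a pair was not considered. The 50 annotated pseudogenes named for any alpha or beta tubulin held reads in 18 cases. Their summed counts came to between 0.396% and 0.483% of the counts of the 9 tubulin members in a sample.

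**Figure D1:**
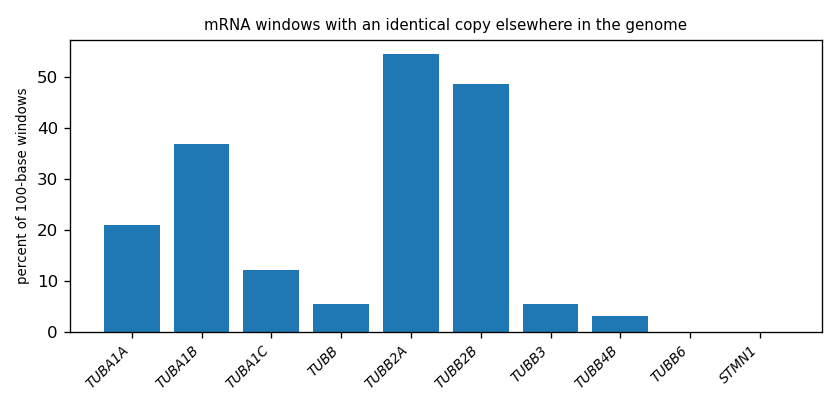
The plot gives, for each member on the horizontal axis, the percent of 100-base windows of its mRNA with an identical copy elsewhere in the genome. The bars reach 54.6% for *TUBB2A* and are at 0% for *TUBB6* and *STMN1*.

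Total counts ran from 64571681 to 103518036 per sample. *TRPV4* was counted 40, 28 and 54 times in SC cells at 0.77 cP, 64, 45 and 24 times in SC cells at 8 cP, and 7, 1 and 13 times in shTRPV4 cells, so the knockdown was visible on a low level. The cell line's markers *VIM*, *CD44*, *KRT8*, *KRT18* and *LGALS1* had summed levels of 4609 to 4751, 4086 to 4286 and 3659 to 4005 CPM (counts relative to the library size, scaled by the TMM method of edgeR) in the 3 groups in that order. *ESR1*, *PGR*, *CDH1*, *CLDN3*, *ERBB3* and *EPCAM* were listed as absent or low in this line. The first 3 had at most 4, 3 and 12 counts in a sample. The others were not absent: group means of *CLDN3* and *ERBB3* lay between 2.35 and 4.49 CPM and those of *EPCAM* between 18.1 and 19.0 CPM. The 10 members took 0.525% ± 0.0139 (SD, n = 3) of all counts in SC cells at 0.77 cP, 0.562% ± 0.00768 in SC cells at 8 cP and 0.539% ± 0.00777 in shTRPV4 cells.

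The order of the members was set by levels per length, CPM per kb of all annotated exon bases of a gene. In SC cells at 0.77 cP, *TUBB* stood at 581 ± 18.8 CPM per kb (SD, n = 3) and *TUBB4B* at 479.8 ± 14.9. *TUBA1B* followed at 140.3 ± 5.07, *STMN1* at 91.6 ± 2.34, *TUBA1C* at 82.6 ± 3.86, *TUBB6* at 67.7 ± 1.84 and *TUBA1A* at 45.8 ± 3.76. *TUBB2A* was lower at 17.7 ± 0.302, and *TUBB2B* at 1.04 ± 0.0791 and *TUBB3* at 0.366 ± 0.0202 were near the bottom of the scale. Neighbours in this order did not overlap in their 3 samples in any group, and the order was the same in SC cells at 8 cP. In shTRPV4 cells *STMN1*, at 82.5 ± 4.79, lay below *TUBA1C*, at 87.4 ± 1.01.

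This order depends on the length that is used. Annotated exons of *STMN1* span 6247 bases against 1443 in its MANE transcript, and with the longest coding transcript *STMN1* stood above *TUBA1B* in every group (334 and 308 CPM per kb in SC cells at 0.77 cP), while *TUBB6* stood above *TUBA1C*. The level of *TUBB3*, the isotype known from neurons, is uncertain in another way. Of its 7421 exon bases, 1584 are shared on the same strand with the gene ENSG00000198211, which was listed at 0 in all 9 samples. The MANE transcript of *TUBB3* has 1706 bases. Whether reads in both genes were left out of the counts is not given in the sources used here, so the last place of *TUBB3* is not firm.

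The first comparison asked what 8 cP medium did to SC cells. *TUBA1A* fell by 0.40 on the log2 scale and *TUBB2B* by 0.34, *TUBB* and *STMN1* rose by small amounts, and the other 6 members did not pass the test (edgeR's quasi-likelihood test, Benjamini-Hochberg adjusted p below 0.05 over 18264 genes). The 4 members called of 10 stand against 19.3% of all genes tested, the 2 that rose against 9.57% and the 2 that fell against 9.69%. DESeq2 also called 4, against 24.0% of genes. The groups did not overlap in 6 members, against 38.4% of all genes, with 3 members higher (19.4% of genes) and 3 lower (19.0%). The median log2 fold change was 0.06 over the members and -0.006 over all genes.

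*TUBA1A*, an alpha-tubulin (chromosome 12, 49184686 to 49189080, minus strand, GRCh38), measured 186, 181 and 159 CPM in SC cells at 0.77 cP and 136, 141 and 122 CPM at 8 cP. All samples at 8 cP were below all samples at 0.77 cP. The log2 fold change was -0.40 (95% interval -0.57 to -0.23, edgeR adjusted p = 0.00393), so that the level fell by 24.0%, and it passed in all 9 leave-one-out fits. In bulk RNA, fewer cells with the transcript and less of it per cell cannot be told apart. Of its 3823 exon bases, 345 lie opposite exons of *TUBA1C* on the other strand.

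The other alpha members, from the same cluster on chromosome 12, gave small values of the opposite sign. *TUBA1B*, the alpha-tubulin with the highest level here, measured 497, 486 and 521 CPM at 0.77 cP and 516, 519 and 543 CPM at 8 cP. Its groups overlapped, and its log2 fold change was 0.07 (95% interval -0.02 to 0.16, edgeR adjusted p = 0.295). For *TUBA1C* it was 0.09 (95% interval 0.00 to 0.19, edgeR adjusted p = 0.167).

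*TUBB*, the beta-tubulin with the highest level in these cells (chromosome 6, 30717435 to 30725538), measured 2375, 2284 and 2435 CPM at 0.77 cP and 2576, 2558 and 2651 CPM at 8 cP. The samples at 8 cP were all higher, by 9.74% on average. Its log2 fold change of 0.13 was close to the threshold (95% interval 0.04 to 0.23, edgeR adjusted p = 0.0488), and 54.8% of all genes had a larger absolute fold change. When counts were scaled by the upper quartile, *TUBB* was no longer called (edgeR adjusted p = 0.0687), nor was it when each sample had to hold at least 10 counts of a gene (edgeR adjusted p = 0.0531).

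*STMN1* (chromosome 1, 25884181 to 25906991, minus strand) measured 565, 562 and 589 CPM at 0.77 cP and 634, 631 and 646 CPM at 8 cP. Its groups did not overlap, and the level rose by 11.3% (log2 fold change 0.15, standard error 0.047, edgeR adjusted p = 0.0328). *TUBB2B*, a beta-tubulin known from developing neurons (chromosome 6, 3223324 to 3231730, minus strand), had only 266 to 443 counts per sample and fell from 4.70, 4.15 and 4.11 CPM to 3.59, 3.41 and 3.26 CPM (log2 fold change -0.34, standard error 0.10, edgeR adjusted p = 0.0283). With 1 sample left out, *TUBB* passed in 3 of 9 fits, *STMN1* in 4 and *TUBB2B* in 5. In every comparison the 9 fits include those without a sample of the group not compared. Such fits leave both compared groups whole and are a weaker check. In the fits without replicate 1 or 2 at 0.77 cP, or without replicate 2 or 3 at 8 cP, *TUBA1A* alone was left, and without replicate 1 at 8 cP the members called were 2.

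*TUBB4B*, a widely expressed beta-tubulin, did not overlap between the SC groups (965, 955 and 1012 CPM against 1041, 1043 and 1061 CPM), but its log2 fold change of 0.10 did not pass (95% interval 0.01 to 0.20, edgeR adjusted p = 0.123). *TUBB2A* was lower in every sample at 8 cP, with a log2 fold change of -0.08 and an edgeR adjusted p of 0.212. *TUBB3* at -0.24 (95% interval -0.51 to 0.03) and *TUBB6* at 0.04 (95% interval -0.06 to 0.13) overlapped.

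The second comparison asked how *TRPV4* knockdown changed the levels at 8 cP. *TUBA1A*, *TUBA1B* and *STMN1* were lower in shTRPV4 cells, where the level fell by 22.5%, 13.5% and 19.0%. These 3 of 10 stand against 20.0% of all genes called and 11.0% called lower. No member was called higher by edgeR, against 9.02% of genes, where 1 member (*TUBB2A*) had an unadjusted p under 0.05, and none was called higher by DESeq2. DESeq2 called 4 members, all lower, against 21.5% of genes. The groups did not overlap in 5 members, against 36.3% of all genes, with 4 members lower (18.8% of genes) and 1 higher (17.6%). The median log2 fold change was -0.08 over the members and 0.001 over all genes.

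*STMN1* measured 482, 527 and 538 CPM in shTRPV4 cells, below 634, 631 and 646 CPM in SC cells at 8 cP, and also below every SC sample at 0.77 cP. Its log2 fold change was -0.30 (95% interval -0.41 to -0.20, edgeR adjusted p = 0.000354), and 25.5% of all genes had a larger absolute change. *TUBA1B* (chromosome 12, 49127782 to 49131397, minus strand) measured 445, 454 and 467 CPM against 516, 519 and 543 CPM, again without overlap (log2 fold change -0.21, 95% interval -0.30 to -0.11, edgeR adjusted p = 0.00368). Of its 3574 exon bases, 1571 lie opposite the antisense gene *TUBA1B-AS1*, and the strand option of the counting is not given in the sources used here.

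*TUBA1A* measured 89.0, 112 and 108 CPM in shTRPV4 cells, each below the lowest SC sample at 8 cP (log2 fold change -0.37, 95% interval -0.54 to -0.20, edgeR adjusted p = 0.00431). All 3 calls held in each of the 9 leave-one-out fits. *TUBA1C*, the third gene of the cluster, measured 385, 389 and 394 CPM against 389, 384 and 404 CPM. Its log2 fold change was -0.01, and the 95% interval of -0.11 to 0.08 did not contain the value of either neighbour.

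Among the beta members none passed. *TUBB* differed by -0.02 (95% interval -0.11 to 0.08) and *TUBB6*, a beta-tubulin of broad expression, by -0.04 (95% interval -0.13 to 0.05). *TUBB4B* was lower in all 3 shTRPV4 samples (1004, 932 and 964 CPM), with a log2 fold change of -0.12 that missed the threshold in edgeR (adjusted p = 0.0755) and passed in DESeq2 (adjusted p = 0.0464). *TUBB2A* was higher in all 3 (50.7, 52.4 and 54.9 CPM against 48.2, 49.4 and 47.7 CPM), with a log2 fold change of 0.12 that also missed it (edgeR adjusted p = 0.0745). Without replicate 1 of shTRPV4, *TUBB2A* and *TUBB4B* both passed in edgeR and the members called were 5, and *TUBB2A* also passed with library totals in place of TMM (0.148). *TUBB3* was at -0.27 (95% interval -0.55 to 0.00), and *TUBB2B* at 0.04 (95% interval -0.18 to 0.25).

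The third comparison set the shTRPV4 samples beside the SC samples at 0.77 cP, which changes viscosity and hairpin at once, and shares its samples with the other comparisons. Here 6 members were called, against 42.4% of all genes, of which 5 were lower (22.0% of genes) and *TUBB* was higher (20.4%). DESeq2 also called 6, against 37.4% of genes. The groups did not overlap in 7 members, against 50.6% of all genes, with 5 members lower (26.1% of genes) and 2 higher (24.5%).

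*TUBA1A* fell by 41.2% (log2 fold change -0.77, 95% interval -0.94 to -0.59, edgeR adjusted p = 2.9e-06), and 10.3% of all genes had a larger absolute change. *TUBB3* (chromosome 16, 89921392 to 89938761) fell from 2.79, 2.54 and 2.81 CPM to 1.77, 1.81 and 2.12 CPM (log2 fold change -0.51, 95% interval -0.79 to -0.24, edgeR adjusted p = 0.00464). Its SC samples at 8 cP, at 2.61, 2.25 and 2.04 CPM, overlapped with both groups. Both *TUBA1A* and *TUBB3* passed in all 9 leave-one-out fits. *TUBB3* was counted only 142 to 289 times in a sample, and reads in its overlap with another gene may be missing from these counts.

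*TUBB2B* fell by 0.30 on the log2 scale (edgeR adjusted p = 0.0242), *STMN1* by 0.15 (edgeR adjusted p = 0.0185) and *TUBA1B* by 0.14 (edgeR adjusted p = 0.0189). *TUBB* rose by 0.12 (edgeR adjusted p = 0.0462). *TUBA1B* lost its call without replicate 3 of SC cells at 0.77 cP (log2 fold change -0.10) or replicate 2 of shTRPV4 cells (-0.14), and *STMN1* lost it without the same SC sample (-0.12) or replicate 1 of shTRPV4 cells (-0.10). *TUBB2B* passed in 6 and *TUBB* in 2 of the 9 fits. With no filter on low counts neither passed, and 4 members were called. With only the 6 samples of the comparison in the fit, *TUBA1B*, *TUBB* and *STMN1* did not pass.

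**Figure D2:**
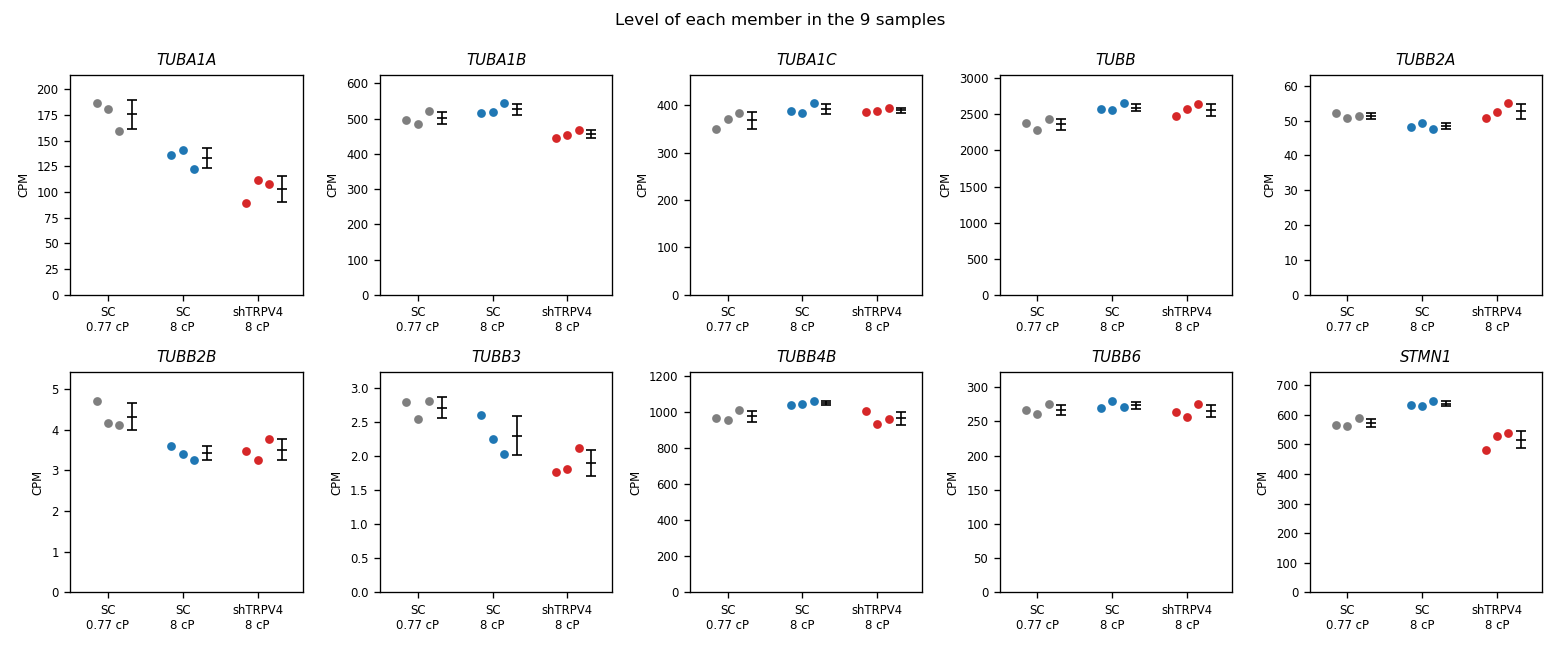
Each panel plots 1 member, with its level in CPM on a vertical axis from 0 and the 3 groups on the horizontal axis; points are samples, and the bar beside them is the mean with its SD (n = 3). *TUBA1A* steps down over the groups (means of 175, 133 and 103 CPM), whereas *STMN1* is highest in SC cells at 8 cP (637 CPM) and lowest in shTRPV4 cells (516 CPM).

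**Figure D3:**
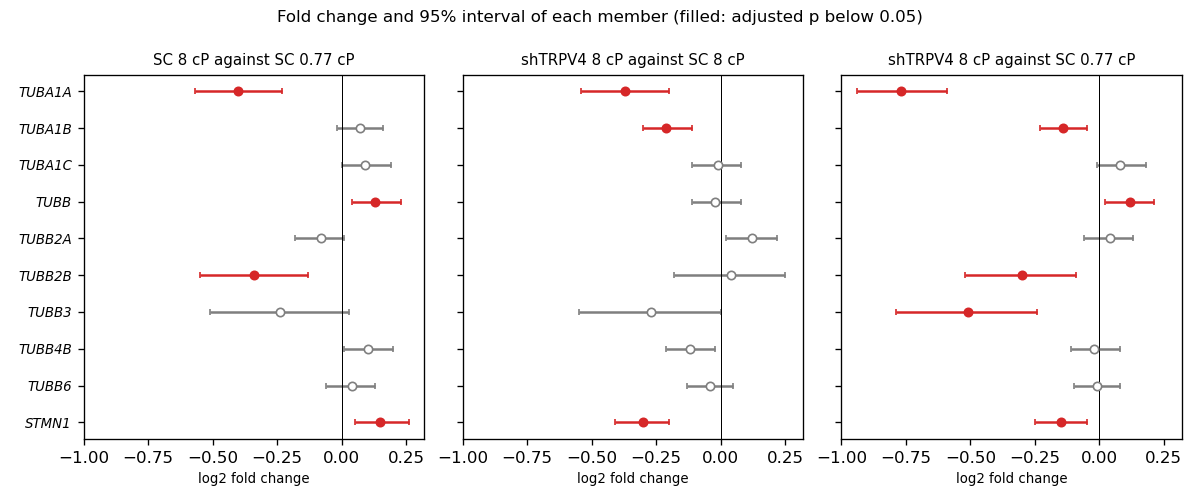
The log2 fold change of each member is plotted with its 95% interval in the 3 comparisons, filled where the edgeR adjusted p was below 0.05. *TUBA1A* is filled on the lower side in all 3 panels, while *TUBA1C*, *TUBB2A*, *TUBB4B* and *TUBB6* are open in each.

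The make-up of the alpha pool differed between the groups. Shares were computed within a sample as the percent that 1 gene gave of the summed CPM per kb of the 3 alpha members. They are descriptions, since 3 samples against 3 cannot go below an exact two-sided permutation p of 0.10. *TUBA1A* gave 18.2%, 17.8% and 15.2% of the pool in SC cells at 0.77 cP, 13.3%, 13.7% and 11.7% in SC cells at 8 cP, and 9.94%, 12.0% and 11.5% in shTRPV4 cells. The SC groups did not overlap, and the groups at 8 cP did.

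*TUBA1C* gave 29.5%, 31.2% and 31.5%, then 32.7%, 32.1% and 33.0%, then 36.9%, 35.8% and 35.7%. Its share was thus higher in each next group without overlap, although its own level in CPM passed no test. *TUBA1B* held the largest share throughout, at 52.2% ± 1.19 (SD, n = 3), 54.5% ± 0.721 and 52.7% ± 0.523. Its share was highest in SC cells at 8 cP.

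The beta pool was carried by *TUBB* and *TUBB4B*. *TUBB* gave 50.6% ± 0.347 (SD, n = 3), 51.4% ± 0.321 and 52.9% ± 1.39 of the summed CPM per kb of the 6 beta members, and *TUBB4B* gave 41.8% ± 0.365, 41.5% ± 0.123 and 39.8% ± 1.44. In shTRPV4 cells, replicate 1 kept 51.3% *TUBB* and 41.5% *TUBB4B*, near the SC samples, whereas replicates 2 and 3 had 53.8% and 53.6% *TUBB* and 39.0% *TUBB4B* each. *TUBB6* gave between 5.60% and 5.90% by group mean and *TUBB2A* between 1.34% and 1.54%. *TUBB2B* and *TUBB3* were minor by these lengths, at 0.0906% and 0.0319% in SC cells at 0.77 cP. The share of *TUBB3* is not firm, since reads in its overlap with another gene may be missing from its counts.

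**Figure D4:**
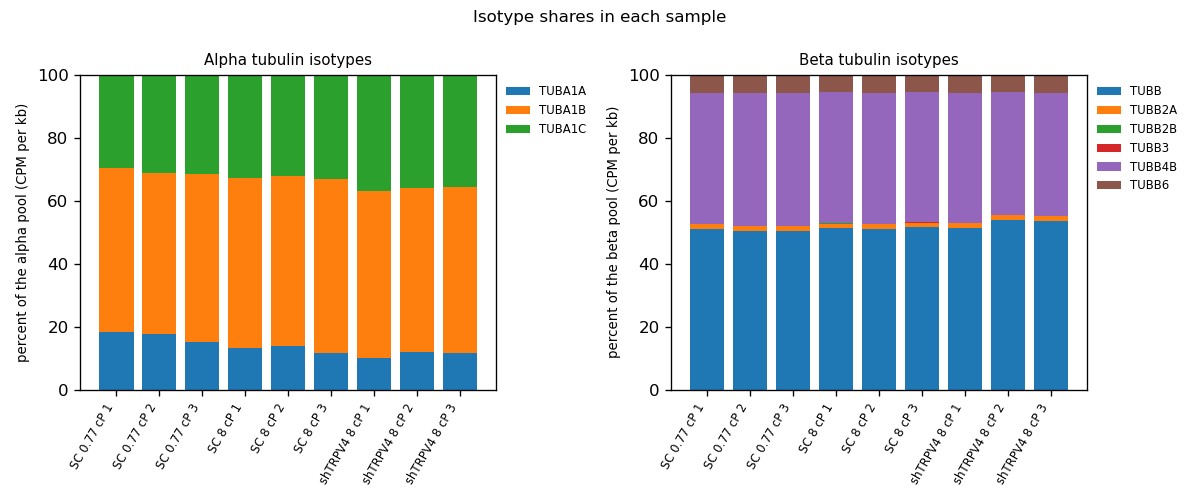
Stacked bars give the percent of the alpha pool (left) and of the beta pool (right) that each isotype held in each of the 9 samples, in CPM per kb. The *TUBA1A* segment averages 17.1% in SC cells at 0.77 cP and 12.9% and 11.1% in the other groups, and *TUBB* with *TUBB4B* fill most of the beta pool.

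Pools and ratios cover the members only. *TUBA4A*, an alpha-tubulin with group means of 61.9, 60.1 and 51.7 CPM in the same order of groups, is left out. Summed over the alpha members, the pool stood at 269 ± 4.10 CPM per kb (SD, n = 3) in SC cells at 0.77 cP, 270.2 ± 3.97 in SC cells at 8 cP and 242 ± 6.79 in shTRPV4 cells. The first 2 groups overlapped, and all shTRPV4 samples were lower. The beta pool stood at 1147 ± 34.6, 1239 ± 16.3 and 1191 ± 19.4 in the same order, highest in SC cells at 8 cP. The ratio of the alpha to the beta pool was 0.233, 0.239 and 0.231, then 0.217, 0.218 and 0.218, then 0.197, 0.207 and 0.204, with no overlap between any groups. As a ratio of RNA levels per annotated length it says nothing of protein dimers. It also rests on alpha counts that are uncertain, with 12.1% to 36.9% of windows found elsewhere, against 5.42% for *TUBB* and 3.01% for *TUBB4B*. Reads of *TUBB3* in its overlap with another gene may be missing from the beta pool and from the 9 tubulins. *STMN1* relative to the 9 tubulins was 6.47% ± 0.0459, 6.75% ± 0.0148 and 5.76% ± 0.293, also without overlap. This percent rests on the length used: by the longest coding transcript, an alternative chosen after seeing the data, it was 15.6%, 16.4% and 14.0%, and by counts 12.1%, 12.7% and 10.7%. The groups did not overlap by either, with SC cells at 8 cP highest and shTRPV4 cells lowest. The alpha to beta ratio was 0.325, 0.303 and 0.279 by the longest coding transcript and 0.285, 0.265 and 0.246 by counts, again without overlap.

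**Figure D5:**
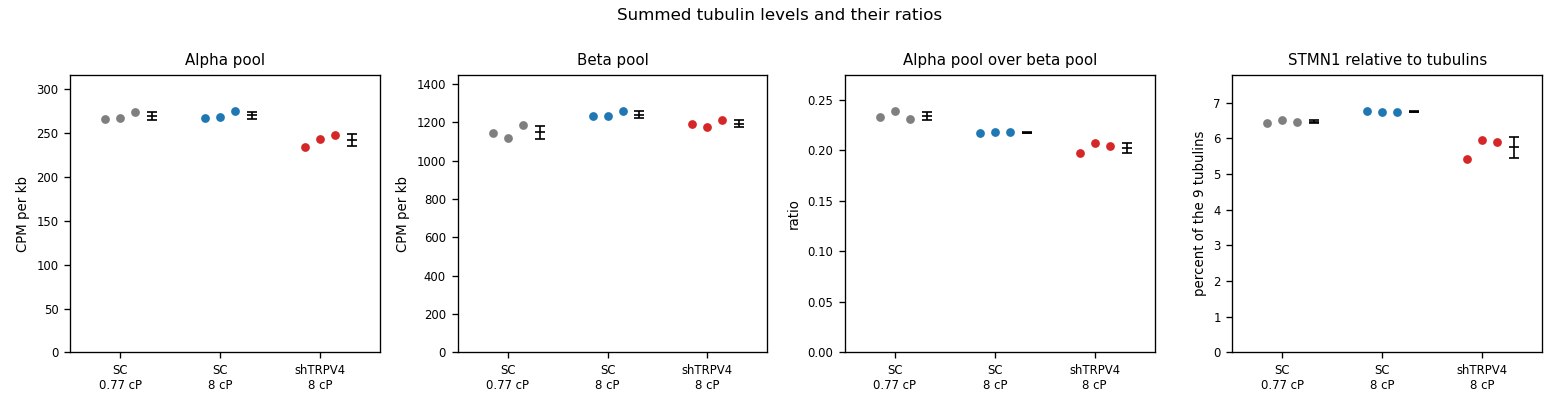
The panels plot the summed alpha and beta pools in CPM per kb, their ratio, and *STMN1* as a percent of the 9 tubulins, for the 3 samples of each group with the mean and SD beside them. The ratio of the pools steps down from 0.234 to 0.218 and 0.203, and *STMN1* is lowest, at 5.76%, in shTRPV4 cells.

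Members differed in how they varied over the 9 samples. Pearson's r of log2 CPM was 0.95 between *TUBA1B* and *STMN1*, 0.88 between *TUBA1A* and *TUBB3*, and -0.83 between *TUBA1C* and *TUBB2B*. These are descriptions over 9 samples of 3 groups, where all genes of a sample share its library and depth and differences between groups are included. Of 9445 genes with a mean of at least 10 CPM, *TUBA1A* was most like *ITPKC* (r 0.997), *MAGED2* and *BSDC1* (both 0.994). *TUBA1B* was most like *KIFC1*, a minus-end-directed kinesin (0.987), *WDFY1* (0.985) and *CAVIN2* (0.969). For *STMN1* these were *PPP1R8* (0.976), *CAVIN2* (0.973) and *WDFY1* (0.963), so the last 2 genes were named for both.

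*TUBA1C* was most like *ANXA7* (0.970), *PAWR* (0.965) and the cyclin gene *CCNB1* (0.959). *TUBB* was most like *BAG2* (0.969), *FANCB* (0.969) and *ZBTB18* (0.968), and *TUBB4B* like *MAP7D1*, which encodes a microtubule-associated protein (0.977), *EVI5L* (0.975) and *CCND3* (0.969). *TUBB3* was most like *MED16* (0.976), *MPI* (0.966) and *CRAT* (0.964), and *TUBB2B* like *L1CAM* (0.970), *LETMD1* (0.960) and *TUBG2* (0.955). *TUBB2A* was most like *FBXL12* (0.962), *NDUFA1* (0.952) and *KRT7* (0.944), and *TUBB6*, the member with the lowest values, like *MTRFR* (0.914), *NTMT1* (0.879) and *SUMO3* (0.867).

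The 250 bases before the start site are shown for the 3 members called lower in shTRPV4 cells at 8 cP, from RefSeq on GRCh38.p14, 5′ to 3′ on the minus strand that all 3 use. Capitals mark a CCAAT box (CCAAT) or an E2F site (TTTGGCGC, TTTCGCGC, TTTCCCGC or TTTGCCGC), read on both strands.
TUBA1A, chr12:49189081-49189330: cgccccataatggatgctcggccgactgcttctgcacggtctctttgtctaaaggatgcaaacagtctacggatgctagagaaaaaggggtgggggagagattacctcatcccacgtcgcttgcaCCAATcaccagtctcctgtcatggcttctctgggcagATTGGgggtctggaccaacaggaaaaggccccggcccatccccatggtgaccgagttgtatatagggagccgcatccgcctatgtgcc
TUBA1B, chr12:49131396-49131645: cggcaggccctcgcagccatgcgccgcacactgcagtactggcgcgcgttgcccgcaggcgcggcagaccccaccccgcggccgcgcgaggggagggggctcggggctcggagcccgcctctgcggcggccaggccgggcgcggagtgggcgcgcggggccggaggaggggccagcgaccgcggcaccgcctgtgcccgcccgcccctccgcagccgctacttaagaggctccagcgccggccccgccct
STMN1, chr1:25906420-25906669: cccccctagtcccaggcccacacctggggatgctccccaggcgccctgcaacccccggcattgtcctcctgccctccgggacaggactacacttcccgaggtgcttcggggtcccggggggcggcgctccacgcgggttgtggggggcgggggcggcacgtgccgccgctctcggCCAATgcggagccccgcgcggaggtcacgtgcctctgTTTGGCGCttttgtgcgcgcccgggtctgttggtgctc

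In the RefSeq table, which matched all 10 members, a promoter was a window of 250 bases before to 50 after a start, and the members had 17 of them. A CCAAT box lay in 10 of the 17, in 8 of the 10 members, against 34.6% of all 35116 promoters. Overlapping windows of *TUBA1C* hold the same CCAAT box, which is counted in each. An E2F site lay in 2 promoters, both of *STMN1*, against 3.31% of all. The CHR element (TTTGAA or TTCGAA) lay in 5, in 3 of the 10 members with several windows from *TUBA1C*, against 16.4% of all. The TATA box (TATAAA) lay in 1, that of *TUBB2A*, against 11.5%, and the CArG box in none, against 1.29%. *TUBA1A* had 2 CCAAT boxes, *STMN1* had 1 at its MANE start, and *TUBA1B* had none of these letters in its window.

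Genes around the tubulins were read from lists of known roles. Of all genes, edgeR called 19.3%, 20.0% and 42.4% in the 3 comparisons in the order above. It called 9.57%, 9.02% and 20.4% higher, and 9.69%, 11.0% and 22.0% lower. The counts of each list below stand against these shares. In 8 cP medium (SC cells), proliferation markers moved most often: 13 of 19 rose and none fell by edgeR, DESeq2 or an unadjusted p under 0.05. Among them were *CCNA2*, cyclin A2 (log2 fold change 0.31), *MCM6*, of the replicative helicase (0.31), and *PCNA*, the sliding clamp (0.27), and the list median was 0.22. Their summed level ran from 4137 to 4573 CPM in SC cells at 0.77 cP, from 4899 to 5253 CPM in SC cells at 8 cP and from 4824 to 5200.1 CPM in shTRPV4 cells. These are RNA levels, and the paper, which also stained its cells for Ki-67, reports that elevated viscosity did not alter proliferation. *MKI67*, the gene of Ki-67, had a log2 fold change of 0.23 that did not pass (edgeR adjusted p = 0.0699). *TUBB* and *STMN1* rose in the same comparison, and the part of proliferation in this was not tested. In shTRPV4 against SC cells at 8 cP, edgeR called 1 of the 19 markers higher (*MCM7*, 0.17) and none lower. At an unadjusted p under 0.05, 3 were lower, and DESeq2 called 1 higher and 1 lower. The list median was -0.01, while *STMN1* and *TUBA1B* fell. In shTRPV4 cells beside SC cells at 0.77 cP, 15 markers rose and 1 fell (median 0.20), and *STMN1* fell.

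Tubulin folding needs the CCT chaperonin, prefoldin and tubulin cofactors. Of 21 such genes, 5 rose at 8 cP in SC cells and none fell by edgeR, DESeq2 or an unadjusted p under 0.05, with the CCT subunits *CCT6A* (log2 fold change 0.25), *CCT5* (0.28) and *TCP1* (0.23) first. In shTRPV4 against SC cells at 8 cP, 2 rose (*TCP1* and *CCT5*, each 0.19) and *TBCEL*, which acts on tubulin stability, fell by 0.25 on the log2 scale. Relative to 0.77 cP, shTRPV4 cells had 8 genes higher and 2 lower. The list medians were 0.06, 0.02 and 0.06 in the 3 comparisons.

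Of the 7 genes of tubulin mRNA autoregulation, 1, 1 and 5 were called in the 3 comparisons in the order above, against 19.3%, 20.0% and 42.4% of all genes. *TTC5* measured 12.7, 12.6 and 12.1 CPM by group mean and *SCAPER* 13.1, 13.2 and 14.1 CPM, and neither passed in any comparison. The CCR4-NOT member *CNOT7* rose by 0.14 at 8 cP in SC cells, and *CNOT11* rose by 0.18 in shTRPV4 against SC cells at 8 cP. Between shTRPV4 cells and SC cells at 0.77 cP, 4 rose and *CNOT8* fell by 0.32. The list medians were 0.11, 0.10 and 0.12.

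Of 17 tubulin modifying enzymes, 3 rose and 1 fell at 8 cP in SC cells. *TTL*, which restores the last tyrosine of alpha-tubulin, rose by 0.38 (edgeR adjusted p = 0.00254), and *AGTPBP1*, a deglutamylase, by 0.21. In shTRPV4 against SC cells at 8 cP, 2 rose and 3 fell, with the glutamylase gene *TTLL4* up by 0.36, *SVBP*, partner of the detyrosinating vasohibins, at -0.37, and *AGBL5*, a deglutamylase, at -0.21. Between shTRPV4 cells and SC cells at 0.77 cP, 6 rose and 6 fell, and *TTL* was higher by 0.60 (edgeR adjusted p = 8.4e-06). The list medians were 0.04, 0.03 and 0.10.

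Of 19 microtubule-binding and growth proteins, 5 rose and 2 fell at 8 cP in SC cells. The plus-end genes *MAPRE1* (0.18) and *CLASP2* (0.18) rose, and the neuronal *MAP2* was lower (-0.70). Both plus-end genes were again higher in shTRPV4 cells at 8 cP (0.18 and 0.17), the 2 calls of the list there, and 7 rose and 2 fell relative to 0.77 cP. The list medians were 0.10, 0.04 and 0.09. Of 11 depolymerizing kinesins and severing enzymes tested, 4 rose at 8 cP in SC cells, including *FIGN* (0.55), *FIGNL1* (0.32) and *KIF2A* (0.23). In shTRPV4 cells at 8 cP, 3 rose and 1 fell: *FIGNL1* (0.32) and *KIF2A* (0.24) were higher, and the mitotic depolymerase gene *KIF2C* was lower (-0.25). Relative to 0.77 cP, 5 rose and 1 fell, and the medians were 0.17, 0.00 and 0.15.

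The gamma-tubulin ring complex, which nucleates microtubules, had 1 of 11 genes higher and 3 lower at 8 cP in SC cells. *TUBGCP2*, a core subunit, was at -0.18, *MZT2B* at -0.25 and *TUBG2* at -0.22. *TUBGCP2* (-0.22) and *MZT1* (-0.17) were the 2 called in shTRPV4 cells at 8 cP, both lower, and 3 rose and 4 fell relative to 0.77 cP, with medians of 0.07, -0.05 and -0.09. Of 11 other tubulin genes 7 were tested. *TUBA4A*, a further alpha-tubulin, had group means of 61.9, 60.1 and 51.7 CPM and fell by 0.22 in shTRPV4 against SC cells at 8 cP (edgeR adjusted p = 0.00678), the 1 call of the list there. No gene of that list was called in the SC comparison by edgeR or DESeq2 (2 were lower at an unadjusted p under 0.05), and *TUBA4A* and *TUBD1* were lower in shTRPV4 cells than in SC cells at 0.77 cP. Its medians were -0.07, 0.16 and 0.06. *STMN3*, the other stathmin gene with enough counts to test, fell by 0.26 at 8 cP in SC cells (169, 141 and 143 CPM by group mean), where *STMN1* rose, and did not pass in shTRPV4 against SC cells at 8 cP (0.03).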

How the data were processed

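Stranded poly(A) RNA libraries of 9 samples were sequenced. The authors mapped reads to GRCh38.p13 with HISAT2 2.2.1, per the submitters' processing notes, summed exon reads per Ensembl gene with HTSeq 0.13.5, and deposited the raw counts, which are not normalized. The strand and multi-mapping options are not given in the sources used here, which can move counts between near-identical or overlapping genes. Groups and replicate numbers were taken from the sample titles.

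Of 60664 genes, 60463 matched a symbol in GENCODE 44. Counts were scaled by TMM, genes were kept by filterByExpr (18264), and edgeR 4.0.16 (R 4.3.3) was used for a quasi-likelihood fit over all 9 samples, with a coefficient for each group. P-values were adjusted by Benjamini-Hochberg over all genes tested, with a threshold of 0.05. Total counts of 64571681 to 103518036 left the spread between samples as the main error (common biological coefficient of variation 0.0633). Per-length levels used merged exon bases of GENCODE 44. Identical windows were found with BLAST+ 2.17.0. The pipeline was tested on simulated data.

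The members and the lists of other genes were chosen with earlier results of these data known. All members are named. Of each list, up to 3 genes with the smallest adjusted p below 0.05 per comparison could be named, and for each member the 3 genes with the highest Pearson r. *TTC5*, *SCAPER* and *MKI67* were added after their values were seen. The alternatives tried were DESeq2 1.42.0 with its size factors, upper quartile scaling, library totals without TMM, no filter, a minimum of 10 counts in all samples, fits to the 6 samples compared, the replicate block, stricter thresholds, other lengths, and leaving out each sample.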

Additional observations from a re-analysis of the deposited data

How the results depend on the processing

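With each sample left out, the members called numbered from 1 to 5 in SC cells at 8 cP against 0.77 cP (4 with all samples), from 3 to 5 in shTRPV4 against SC cells at 8 cP (3), and from 3 to 5 in shTRPV4 cells against SC cells at 0.77 cP (6). An adjusted p below 0.01 left 1 in the first comparison and 2 in the third. A minimum absolute log2 fold change of 0.5 left 0, 0 and 2. DESeq2 called 4, 4 and 6, and a fit to only the 6 samples of the third comparison called 3 there. *TUBB* missed the threshold with upper quartile scaling (edgeR adjusted p of 0.0687 in the first comparison and 0.0841 in the third), with a minimum of 10 counts (0.0531 and 0.0502) and, in the third, with no filter (0.0517), where *TUBB2B* also missed it (0.0558) and 4 members were called. *TUBA1A* passed in every comparison and in every fit that left out a sample.

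Signs turned only for uncalled values near 0. In shTRPV4 against SC cells at 8 cP, library totals without TMM gave 0.016 for *TUBA1C* and 0.011 for *TUBB*, and with a sample left out the log2 fold change ranged from -0.031 to 0.010 for *TUBA1C*, from -0.039 to 0.007 for *TUBB* and from -0.020 to 0.084 for *TUBB2B*. Against SC cells at 0.77 cP, library totals gave 0.012 for *TUBB4B* and 0.019 for *TUBB6*, DESeq2 gave 0.002 for *TUBB6*, and the ranges with a sample left out were -0.044 to 0.018 and -0.033 to 0.022.

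Isotype shares in SC cells at 0.77 cP moved with the length used. Without division by length they were 48.0% for *TUBA1B*, 35.2% for *TUBA1C*, 64.5% for *TUBB*, 26.7% for *TUBB4B*, 7.28% for *TUBB6*, 1.40% for *TUBB2A*, 0.118% for *TUBB2B* and 0.0740% for *TUBB3*. By the longest coding transcript they were 58.6% for *TUBA1B*, 24.8% for *TUBA1C*, 38.7% for *TUBB4B*, 8.78% for *TUBB6*, 1.97% for *TUBB2A*, 0.139% for *TUBB2B* and 0.0848% for *TUBB3*. The *TUBA1A* share moved by less than 1 SD, to 16.8% and 16.6%.

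The replicate number gave no sign of pairing: deviations of samples with the same number correlated between -0.169 and 0.270, those of samples with different numbers between -0.241 and 0.266. These ranges cannot exclude shared batches. Replicate 3 of both SC groups and replicate 1 of shTRPV4 cells correlated with each other between 0.242 and 0.270. With the replicate block all 30 member values kept their call, so that 4, 3 and 6 members were called, and all genes called numbered 3475, 3607 and 7731 in place of 3518, 3649 and 7752.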
